A study of Mus musculus with 6 samples.

Results

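The genes described here encode nuclear subunits of the oxidative phosphorylation system. They were taken from a fixed list of 52 gene names, and every non-control probe whose gene name in the array files was on the list was used. All 52 genes were found, through 72 probes, among 20831 genes tested on the arrays. The genes fall into 27 listed under complex I, 4 of complex II, 6 of complex III, cytochrome c, 9 of complex IV and 5 of complex V.

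RNA from brain tissue of male mice on the C57BL/6N background was measured in 3 samples labelled Pla2g2e-deficient and 3 labelled wild type, each on its own 1-colour Agilent array. The deleted gene codes for a phospholipase A2 that cells secrete and that cleaves fatty acids from phospholipids. Titles call every sample sham-operated, whereas the treatment field of each speaks of temporary middle cerebral artery occlusion. The groups here follow the titles. The labels give no age and do not say how the deletion was made. They also leave unstated whether each sample is a different mouse, and the spread behind the p-values may therefore be technical.

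Oxidative phosphorylation takes place in the inner mitochondrial membrane. Complex I accepts electrons from NADH and complex II from succinate, both pass them through ubiquinone to complex III, and cytochrome c carries them on to complex IV, which reduces oxygen. The proton gradient built on the way drives complex V, the ATP synthase. Neurons depend heavily on this pathway for ATP. Most subunits are encoded in the nucleus, and a small set of core subunits is encoded in mitochondrial DNA.

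Values are log2 of the processed spot signal, scaled so that 0 is the 75th percentile of the non-control spots of that array. Differences are knockout minus wild type on this log2 scale, given ± the standard error of the limma fit (n = 3 per group). A probe's signal depends on the probe as well as on its transcript, so signal classes below describe probes, and levels of different genes were not compared.

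The probes of Ndufb5, an accessory subunit of complex I, are shown because they are the member probes whose differences disagree most. Their opening 30 bases, 5′ to 3′, are printed for the plus strand of chromosome 3 (mm9), with no part marked.
A_55_P2103352 at chr3:32650097-32650156: gtgtgtccctctagtgggaagaaatgaata
A_51_P201904 at chr3:32650236-32650295: cagggtagtaatgaaacctggaggtctggg
A_55_P2125139 at chr3:32643684-32643743: cacaagcaaagaacattcacccgtgtatat
A_55_P2125144 at chr3:32647763-32647822: tgagccaccagacatgaatacagcaagtac
The array files assign the opening pair to the RefSeq transcript of the gene and the other pair to separate Ensembl transcripts. The exon or untranslated region that a probe lies in is not given, as no mm9 gene annotation was used.

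Promoters were read from RefSeq (GRCm38.p6, 250 bases before to 50 after each gene's start) and matched 41 of the 52 genes. The sites below are shown because NRF1 and YY1 are known as regulators of nuclear genes of the respiratory chain. Capitals mark the letters searched, in either orientation. NRF1 was searched as GCGCATGCG, whose letters overlap their own reverse complement, so that 1 place can match both ways.
Cox6a1, chr5:115349101-115349130: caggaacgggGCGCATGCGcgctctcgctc
Cycs, chr6:50566611-50566640: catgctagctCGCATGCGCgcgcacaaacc
Ndufa8, chr2:36049328-36049357: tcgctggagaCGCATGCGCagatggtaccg
Uqcrc1, chr9:108936668-108936697: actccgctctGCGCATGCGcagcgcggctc
YY1 was searched as AAGATGGC.
Ndufa3, chr7:3617384-3617413: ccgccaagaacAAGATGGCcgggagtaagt
Ndufb8, chr19:44555393-44555422: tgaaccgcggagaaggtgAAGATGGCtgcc
Ndufs7, chr10:80249462-80249491: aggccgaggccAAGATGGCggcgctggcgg
The sequences lie on the strand of their gene, which is the plus strand for Uqcrc1, Ndufa3 and Ndufs7 and the minus strand for Cox6a1, Cycs, Ndufa8 and Ndufb8. The NRF1 letters were found in 4 of 41 member promoters (9.76%), against 1.95% of the promoters of all 27025 genes in the table. The YY1 letters were found in 6 of 41 (14.6%; the genes printed and Ndufa9, Ndufs4 and Ndufs6), against 3.19% of all. GABPA (CCGGAAGT) was found in 2 of 41 (4.88% against 4.31%) and SP1 (GGGCGG) in 17 of 41 (41.5% against 38.2%). The 6 YY1 matches and the 2 GABPA matches were at or after the gene start, and none remained when the window ended at the start. A match of letters is a description and does not show binding.

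Across the whole series, 82.0% to 85.3% of the 43020 non-control spots per array were well above background, and arrays correlated at 0.991 to 0.998. All 81 member spots were well above background on all 6 arrays and none was saturated. The 3 wild-type arrays and knockout 1 shared a slide, and knockout 2 and 3 lay on another. The 2 probes of the targeted gene disagreed. The brighter Pla2g2e probe read -7.11, -7.94 and -7.90 in the knockout samples, against -7.14, -7.31 and -6.73 in the wild-type samples, and knockout 1 lay within the wild-type range. The dimmer one read -8.47, -8.51 and -8.45 in the knockout samples, against -8.55, -8.65 and -9.20 in the wild-type samples, so here every knockout value was the higher. Its processed signals were only 3.49 to 6.63, and wild-type 3 was not well above background. The labels do not give the position of the deletion relative to the probes, and this gene does not check the genotype labels.

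No subunit gene changed at an adjusted p under 0.05 between knockout and wild-type brain. None had an unadjusted p under 0.05 (6 with median centring, 1 with the mean of a gene's probes, 0 to 1 without 1 array). Over all genes the corresponding shares were 0% adjusted and 12.5% unadjusted (2613 genes, limma). The smallest p among the subunits was 0.0577, for Atp5o (adjusted p = 0.405, limma). Knockout means were higher for 42 of the 52 genes and lower for 10 (52 and 0 when arrays were centred on the median), with a median difference of 0.05 (range -0.11 for Cox6a1 to 0.15 for Atp5o). Of all genes 45.7% had a higher knockout mean, with a median difference of -0.02. The 95% intervals of the 52 differences ran from -0.40 to 0.39, so that changes above 1.32-fold lay outside every one of them.

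**Figure D1:**
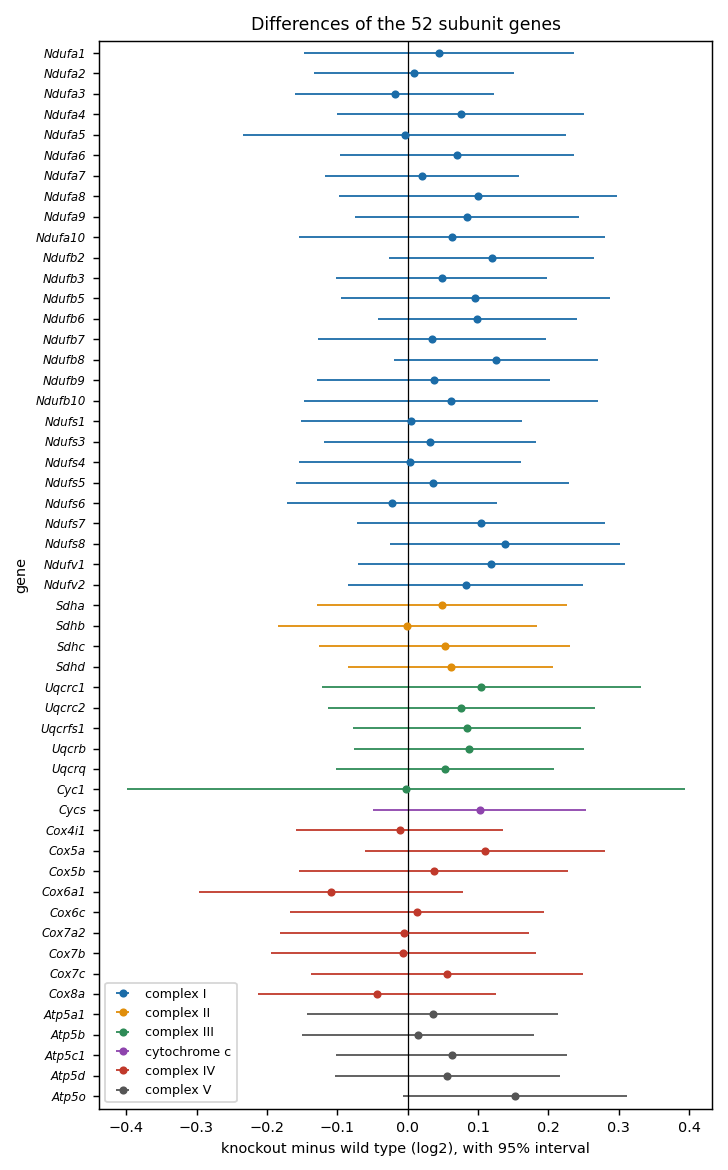
Knockout minus wild-type difference (log2, x axis) of each of the 52 subunit genes (y axis, coloured by complex). Points are limma estimates and bars 95% intervals (n = 3 arrays per group, 2 knockout arrays for Ndufa5); every interval crosses 0, and that of Cyc1 is the widest.

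The subunits are bright genes, and bright genes as a class leaned the same way. Of the 52 genes, 48 were among the brightest 10% of genes by mean signal and the other 4 in the next 10%. Of the brightest 10% of genes, 70.2% had a higher knockout mean, and the 2035 of them that are not subunits had a median difference of 0.04. The median difference was -0.15 in the dimmest 10% of genes and -0.18 in the 10% above it. The 12 subunits whose 3 knockout values all exceeded the 3 wild-type values (23.1%) compare with 7.61% of all genes and 15.1% of the brightest 10%, and no subunit had all knockout values below wild type, against 12.4% of all genes and 2.35% of the brightest 10%. The count of 12 was 31 with median centring, 8 with quantile normalization, 19 on the shared slide alone and 21 without wild-type 2. The shares over all genes under these settings are not given, and groups of fewer arrays separate more easily. The count of subunits wholly lower was 1 with quantile normalization. It ranged from 0 to 4 when 1 array was left out and from 0 to 8 over the other settings.

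**Figure D2:**
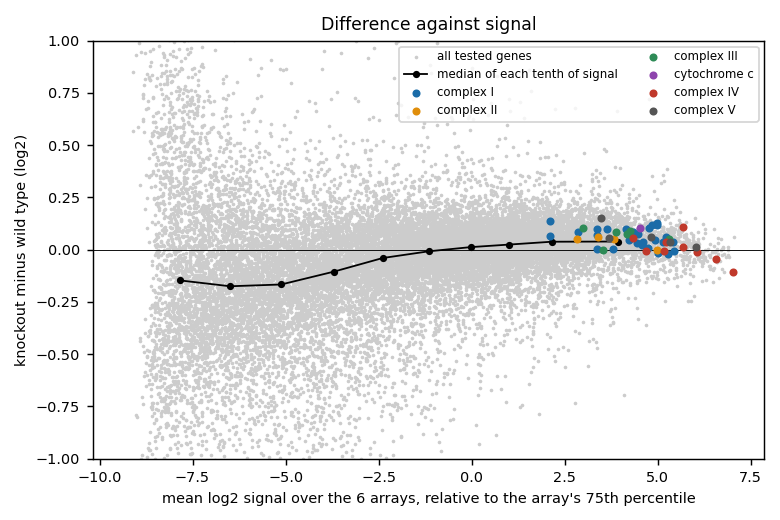
Knockout minus wild-type difference (log2, y axis) against mean log2 signal over the 6 arrays (x axis, relative to the 75th percentile) for all tested genes in grey, with subunits coloured by complex and the black line joining the medians of 10 equal classes of signal. The subunits sit at the bright end, around a line that reaches 0.04; 311 genes lie beyond the plotted range.

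Subunits and other bright genes varied by array within each genotype. Relative to the wild-type mean, the median of the 52 genes was 0.02, 0.09 and 0.04 on the knockout arrays, against 0.03, 0.03 and -0.06 on the wild-type arrays. Knockout 1 thus lay below wild-type 1 and 2, and the groups overlapped. The same medians over the 2035 other bright genes were 0.00, 0.09 and 0.03 on the knockout arrays, against -0.00, 0.02 and -0.02 on the wild-type arrays, with knockout 2 again the highest and wild-type 3 the lowest. Of the 51 genes with all 6 values, 33 were highest on knockout 2 and 36 were lowest on wild-type 3. On the slide that holds both genotypes, knockout 1 against the 3 wild-type arrays, the members' median difference was 0.02 with 34 genes higher, and that of the other bright genes was -7.04e-05. Knockout 2 and 3 and their slide cannot be told apart.

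Markers of other cell types and regions moved between the same arrays. The median of 10 striatum markers was -0.86, -0.70 and -0.76 on the knockout arrays, against -0.22, -0.69 and 1.02 on the wild-type arrays, with all 10 lower by mean in knockout. Wild-type 3 was therefore highest for striatum markers and lowest for most subunits. Choroid plexus markers (8 of 8 lower, median -0.58), meninges markers (8 of 8 lower, median -0.48) and red blood cell markers (6 of 6 lower, median -0.66) also had lower knockout means. The array medians of the groups overlapped in the choroid plexus, meninges and red blood cell lists. Those of the striatum list did not, narrowly, with -0.70 on knockout 2 against -0.69 on wild-type 2. Every knockout value lay below every wild-type value for 2 striatum, 1 choroid plexus and 3 meninges markers. That held for 12.4% of all genes. Red blood cell medians were -2.11, 1.53 and -1.46 on the knockout arrays, against 1.14, -0.79 and -0.34 on the wild-type arrays. Choroid plexus medians were -0.03, -0.84 and -0.81, against 0.49, -1.13 and 0.57. Of 8 oligodendrocyte markers 7 were lower (median -0.36), each with overlapping groups. Mbp went the other way, with every knockout value above every wild-type value (0.33 ± 0.09). Of 12 neuron markers 7 were higher (median 0.04), of 6 parvalbumin interneuron markers 4 (median 0.17), of 8 astrocyte markers 4 (median -0.03), of 8 microglia markers 5 (median 0.02) and of 8 endothelium markers 4 (median -0.01). At an unadjusted p under 0.05 (limma), 2 of 12 neuron markers, Nefl (0.23) and Nefm (0.28), and Mbp of 8 oligodendrocyte markers were higher. Lower at that threshold were Col3a1 (-0.95) and Col1a1 (-0.81) of 8 meninges markers and Drd1 (-1.01) of 10 striatum markers. So was Kcnj13 (-0.70) of 8 choroid plexus markers. No parvalbumin interneuron, astrocyte, microglia, endothelium or red blood cell marker was past it. Over all genes the shares were 3.00% higher and 9.54% lower. No marker passed adjustment. The part of the listed markers' cells in the subunit values was not tested. In bulk tissue, fewer cells of a type and less RNA per cell cannot be told apart.

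**Figure D3:**
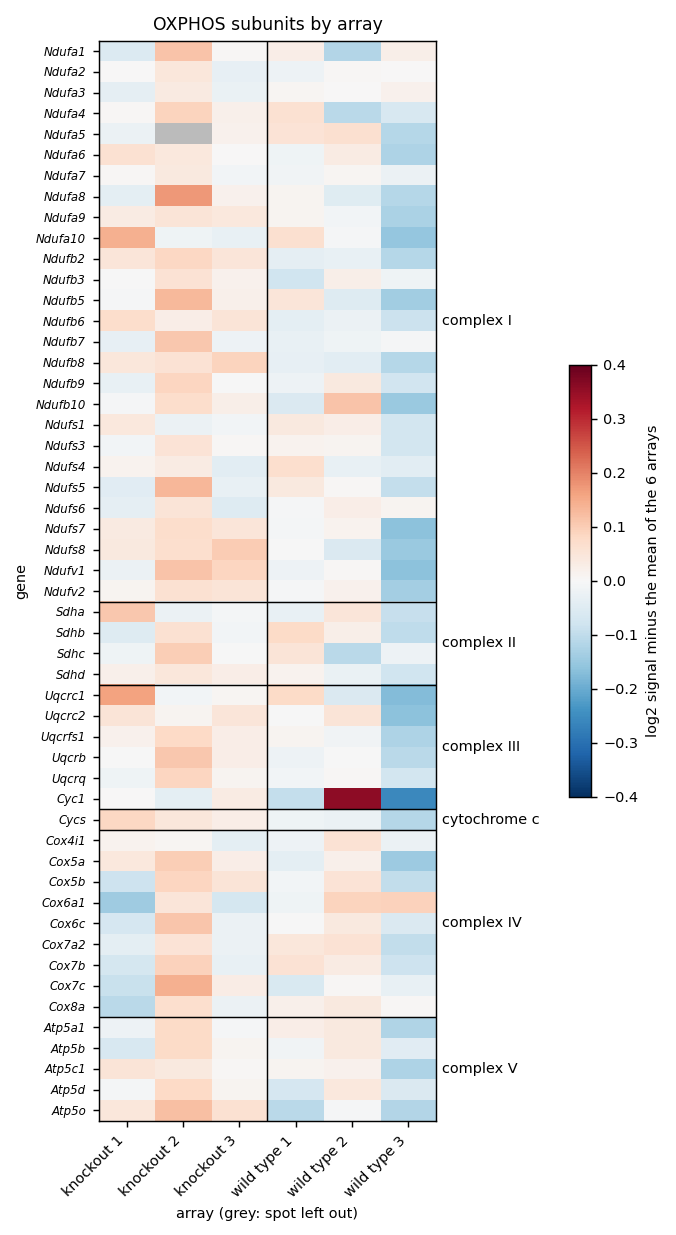
Log2 signal of each subunit gene (rows, by complex) on each array (columns, knockout at left) minus its mean over the 6 arrays; red is above and blue below that mean, and grey is a spot left out. Knockout 2 is red and wild-type 3 blue over most rows.

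Complex I, the NADH dehydrogenase, had a median difference of 0.06 over 27 genes, 24 of them higher. Its 6 core subunits, which hold the flavin and the iron-sulfur clusters, were all higher by mean (median 0.09), and the 20 accessory subunits, which surround the core, had a median of 0.05 with 17 higher. Ndufa4, first listed under complex I and now placed in complex IV, differed by 0.08.

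Ndufs8, an iron-sulfur core subunit (chr19:3911177-3911236), read 2.14, 2.17 and 2.20 in knockout samples, against 2.10, 2.04 and 1.95 in wild-type samples. Every knockout value lay above every wild-type value, by a margin smaller than the range within wild type. The difference was 0.14 ± 0.07 (adjusted p = 0.441).

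Ndufb8, an accessory subunit of the membrane arm (chr19:44624855-44627199), read 5.04, 5.05 and 5.08 in knockout samples, against 4.96, 4.95 and 4.88 in wild-type samples. The groups did not overlap (0.13 ± 0.06, adjusted p = 0.437). Ndufb2, another accessory subunit (chr6:39548336-39549425), read 4.89, 4.92 and 4.88 in knockout samples, against 4.80, 4.81 and 4.72 in wild-type samples, again without overlap (0.12 ± 0.06, adjusted p = 0.456). Ndufb6 (chr4:40217720-40217779) read 3.71, 3.67 and 3.69 in knockout samples, against 3.60, 3.62 and 3.55 in wild-type samples. In each of these genes the lowest value was on wild-type 3, the array with the lowest subunit median.

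Ndufs6, an accessory subunit that binds zinc, read 5.26, 5.34 and 5.24 in knockout samples, against 5.28, 5.32 and 5.30 in wild-type samples. The knockout values fell on both sides of the wild-type ones. Ndufa3 read 4.967, 5.039 and 4.975 in knockout samples, against 5.011, 5.004 and 5.021 in wild-type samples, and overlapped in the same way. Ndufa5, another accessory subunit, read 5.42 and 5.47 on knockout 1 and 3, the spot on knockout 2 being left out as non-uniform, against 5.50, 5.51 and 5.33 in wild-type samples. Ndufb9 read 5.39, 5.51 and 5.42 in knockout samples, against 5.40, 5.46 and 5.34 in wild-type samples. Neither gene separated the groups.

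The remaining complex I genes (Ndufa1, Ndufa2, Ndufa6, Ndufa7, Ndufa8, Ndufa9, Ndufa10, Ndufb3, Ndufb7, Ndufb10, Ndufs1, Ndufs3, Ndufs4, Ndufs5, Ndufs7, Ndufv1 and Ndufv2) were all higher by mean, from 0.00 for Ndufs4 to 0.12 for Ndufv1, the flavin-binding subunit. Ndufa9 and Ndufs7 among them had non-overlapping groups.

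Ndufb5 was measured by 4 probes that did not move together. The brightest probe, A_55_P2103352, read 4.132, 4.266 and 4.159 in knockout samples, against 4.185, 4.086 and 3.997 in wild-type samples, and the groups overlapped (0.10 ± 0.08, adjusted p = 0.640 over all probes). A_51_P201904 read 1.12, 1.04 and 0.999 in knockout samples, against 1.08, 1.67 and 1.06 in wild-type samples, where wild-type 2 alone stood high. A_55_P2125139 read -5.70, -5.72 and -5.81 in knockout samples, against -5.44, -5.48 and -5.40 in wild-type samples. Here all knockout values were lower (-0.30 ± 0.07, adjusted p = 0.269, limma).

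A_55_P2125144 read -6.88, -6.73 and -6.87 in knockout samples, against -6.52, -6.34 and -6.45 in wild-type samples (-0.40 ± 0.08, adjusted p = 0.262, limma). Both probes that separated the groups were dim, with processed signals of 38.9 to 42.4 in knockout against 44.6 to 49.4 in wild type for A_55_P2125139. For A_55_P2125144 they were 18.6 to 19.7 in knockout against 23.3 to 24.6 in wild type. They were the 2 of 72 member probes with an unadjusted p under 0.05, against 12.1% of all probes in either direction and 9.03% lower. Their groups did not overlap, which held for 11.9% of all probes in that direction. Dim genes leaned lower in knockout as a class. Neither passed the adjusted threshold. The difference of A_55_P2125139 was -0.17 with normexp background correction, -0.14 with quantile normalization and -0.19 with median centring. That of A_55_P2125144 was -0.16 with normexp and -0.27 with quantile normalization.

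**Figure D4:**
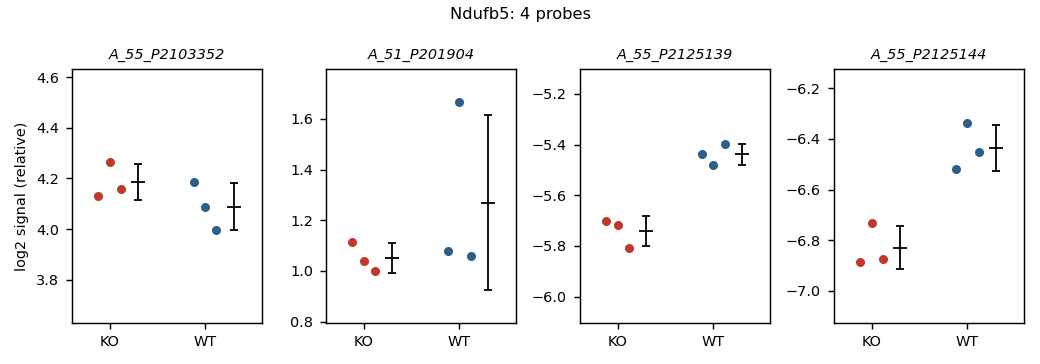
Log2 signal (y axis, relative to the array's 75th percentile) of the 4 Ndufb5 probes, one panel each with its own range of 1 log2 unit. Points are arrays (KO, knockout, left; WT, wild type, right) and bars mean ± SD of 3; the 2 dim probes at right separate the groups and the 2 brighter ones do not.

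Among the 14 subunit genes with several probes, Sdhb, Ndufa5 and Ndufa3 also had probes of opposite sign, all within -0.02 to 0.09. Of the 3 Uqcrb probes, 1 differs from the other two by 1 base where they overlap, and the 3 gave differences of 0.08 to 0.10. The overlap is printed with the differing base in capitals, on the minus strand of chromosome 13 (mm9), and the change from the opening probe to the next is A11G, counted from 1 at the 5′ end of the printed stretch.
A_55_P1965402: aggagagagaAgagtgggcaaag
A_55_P2088218: aggagagagaGgagtgggcaaag

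Complex II, succinate dehydrogenase, had a median difference of 0.05 over 4 genes, 3 of them higher. Sdha, the flavoprotein, read 3.93, 3.80 and 3.82 in knockout samples, against 3.80, 3.87 and 3.73 in wild-type samples. Sdhb, the iron-sulfur subunit, read 4.93, 5.05 and 4.97 in knockout samples, against 5.06, 5.01 and 4.88 in wild-type samples. Both overlapped. Of the membrane anchors, Sdhd had non-overlapping groups (0.06) and Sdhc did not (0.05).

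Complex III, the cytochrome bc1 complex, had a median difference of 0.08 over 6 genes, 5 of them higher. Uqcrq read 5.28, 5.39 and 5.31 in knockout samples, against 5.29, 5.30 and 5.23 in wild-type samples. Uqcrb read 4.25, 4.36 and 4.28 in knockout samples, against 4.24, 4.25 and 4.15 in wild-type samples, and its knockout 1 and wild-type 2 values were equal to 2 decimals, without overlap. Uqcrc1 and Uqcrc2, the core proteins, differed by 0.10 and 0.08 and overlapped. Uqcrfs1, the Rieske iron-sulfur protein, also did not overlap (0.08).

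Cyc1, cytochrome c1, had the largest spread of the 52 genes. It read 3.53, 3.49 and 3.57 in knockout samples, against 3.44, 3.89 and 3.27 in wild-type samples. The knockout values lay between wild-type 2 and the other wild-type arrays. Cycs, the soluble electron carrier cytochrome c, read 4.60, 4.56 and 4.54 in knockout samples, against 4.50, 4.49 and 4.41 in wild-type samples, without overlap (0.10 ± 0.06, adjusted p = 0.524).

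Complex IV, cytochrome c oxidase, had 4 of 9 genes higher by mean and a median of -0.00. That median was 0.11 with median centring, where all genes together had 0.10, and -0.06 within the slide that holds both genotypes. Cox6a1 read 6.89, 7.08 and 6.96 in knockout samples, against 7.02, 7.12 and 7.12 in wild-type samples. The groups overlapped through knockout 2 and wild-type 1, and the difference of -0.11 ± 0.08 was the lowest of the subunits (adjusted p = 0.576). Cox8a read 6.45, 6.62 and 6.53 in knockout samples, against 6.58, 6.60 and 6.56 in wild-type samples, a knockout spread wider than the difference of -0.04. Cox4i1 read 6.07, 6.06 and 6.02 in knockout samples, against 6.04, 6.11 and 6.03 in wild-type samples. Cox5a was the complex IV gene without overlap (0.11, higher). Cox7c (0.06), Cox5b (0.04), Cox6c (0.01), Cox7a2 (-0.00) and Cox7b (-0.01) overlapped.

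Complex V, the ATP synthase, had 5 of 5 genes higher by mean and a median of 0.06. Atp5o, the peripheral-stalk subunit that confers oligomycin sensitivity (chr16:91925542-91925601), read 3.51, 3.59 and 3.53 in knockout samples, against 3.36, 3.47 and 3.35 in wild-type samples. It did not overlap and had the largest difference of the 52 genes, 0.15 ± 0.06. Atp5b, the catalytic beta subunit, read 5.96, 6.10 and 6.03 in knockout samples, against 6.01, 6.06 and 5.98 in wild-type samples. Atp5a1, the alpha subunit, read 5.33, 5.42 and 5.34 in knockout samples, against 5.37, 5.38 and 5.22 in wild-type samples. The catalytic head therefore overlapped, while the 2 central-stalk genes, Atp5c1 and Atp5d, differed by 0.06 each and overlapped as well.

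**Figure D5:**
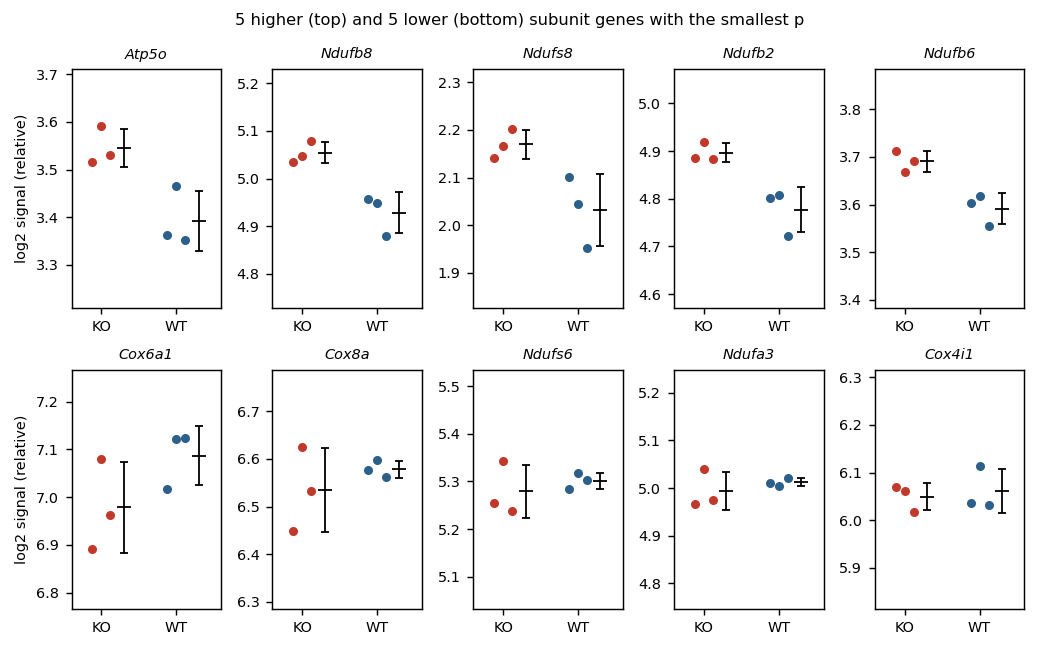
Log2 signal (y axis, relative to the array's 75th percentile; each panel spans 0.5 log2 units) of the 5 higher (top) and 5 lower (bottom) subunit genes with the smallest p. Points are arrays (KO, knockout, left; WT, wild type, right) and bars mean ± SD of 3; the top row does not overlap and the bottom row does.

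Other genes of the pathway gave the following counts, against 3.00% of all genes higher and 9.54% lower at an unadjusted p under 0.05. Of 24 further nuclear subunits, 23 were higher by mean (median 0.05) and 1, Atp5pb, the b subunit of the ATP synthase stalk, was past the unadjusted threshold. Atp5pb read 3.65, 3.66 and 3.71 in knockout samples, against 3.45, 3.43 and 3.43 in wild-type samples, without overlap (0.24 ± 0.06, adjusted p = 0.272). Of 8 measured subunits encoded in mitochondrial DNA, 3 were higher and 5 lower (median -0.04), none past it. These were ND1, ND2, ND4, ND4L, ND5, ND6, CYTB and ATP8, so no complex IV subunit was among them.

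Of 42 measured assembly factors, 35 were higher by mean (median 0.07) and 5 were past the unadjusted threshold, all higher. They were Cox10, needed to make the heme of complex IV (0.35 ± 0.09), Lyrm7, of complex III (0.32 ± 0.09), Ndufaf6, of complex I (0.24 ± 0.07), Sdhaf3, of complex II (0.20 ± 0.06) and Ndufaf4, of complex I (0.16 ± 0.06); none passed adjustment, the lowest adjusted p being 0.289 (limma). Ndufaf4 exceeds the 4 genes set for naming and was added after its value was seen. Of 8 measured tissue-specific isoforms, 4 were higher, and Cox4i2 (-0.19 ± 0.06) and Cox6b2 (-0.27 ± 0.11) were past the unadjusted threshold. Of 16 regulators of mitochondrial biogenesis, 10 were higher (median 0.05), with Ppargc1b past it (0.32 ± 0.13), and of 16 pyruvate dehydrogenase and citrate cycle genes 13 were higher (median 0.06), none past it.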

How the data were processed

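The deposited files hold the spot intensity of each array from Agilent Feature Extraction 12.1.1.1 (protocol GE1_1200_Jun14, design 026655, mm9), per the file headers and the submitters' processing notes; the authors' processed signal is an intensity that was background-subtracted. Here its log2 was used, less the 75th percentile of the array's non-control spots. Control spots (1377) and non-uniform or outlier spots were left out, and spots of a probe were averaged. The fit took probes that were well above background on all arrays of 1 group or both (31954 of 39429 probes), and the brightest probe stood for its gene. The 4546 probes without a gene name stayed in the probe fit and out of the gene fit, a choice made after a first fit that kept them had been seen. The probe fit called 0 probes. Names follow the files for the 52 subunits and GRCm38.p6 RefSeq accessions otherwise. Knockout and wild type were compared with limma 3.58.1 in R 4.3.3 (lmFit, eBayes, two-sided), with Benjamini-Hochberg adjustment over 20831 genes at 0.05. With 3 arrays per group an exact permutation test cannot go below 0.1, and was not used. The number of arrays limits the precision.

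The members and the other gene lists were chosen with earlier results of these data known. Values on each array are given for the 5 members in each direction with the smallest p, the 2 members of each complex whose probes had the highest signal and members with probes of opposite sign of which 1 had p under 0.05. Other lists name genes with an unadjusted p under 0.05, at most 4 per direction. Members outside these rules are named with their difference to account for all 52, and Cyc1 was singled out after its values were seen. Scaling, background correction, filters, probe choice, slide, replicate block and omitted arrays were varied.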

Additional observations from a re-analysis of the deposited data

How the results depend on the processing

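No subunit passed the adjusted threshold under any setting, and 372 of 408 values of named subunits and Ndufb5 probes kept their direction and side of the threshold; the cause of the 36 turned values was not tested. The members' median ranged from 0.02 (quantile normalization, slide as fixed block, or within 1 slide) to 0.17 (median centring). With median centring, all genes together had a median of 0.10 and the other bright genes 0.157. The members' median was 0.06 with slide as random block, and 0.02 to 0.07 when 1 array was left out. With slide as a fixed block the other bright genes gave 5.80e-05 and within the slide -7.04e-05. Median centring gave 0.0096 for Cox6a1, 0.075 for Cox8a, 0.096 for Ndufs6, 0.100 for Ndufa3, 0.107 for Cox4i1, 0.113 for Ndufa5 and 0.118 for Sdhb. Quantile normalization gave 0.0094 for Cox4i1 and 0.017 for Ndufa5, normexp 0.0061 for Sdhb, and a slide as random block 0.0054 for Sdhb. The mean of probes gave 0.0075 for Ndufa3, 0.0071 for Sdhb and -0.205 for Ndufb5. Slide as fixed block, and within the slide alike, gave 0.0086 for Cox4i1, -0.057 for Atp5b, -0.0012 for Atp5a1 and -0.011 for Ndufb9. Leaving out 1 array gave -0.061 to 0.114 for Ndufa5, -0.051 to 0.038 for Sdhb, -0.020 to 0.051 for Atp5b, -0.016 to 0.064 for Atp5a1 and -0.025 to 0.015 for Cox4i1.

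Over all genes, 0 were called with any array left out except knockout 1, where 403 genes and 882 probes passed (ranges 0 to 403 and 0 to 882). The filter is then applied to the 5 arrays left and admits dim probes: the 403 genes had a median signal percentile of 4.41. Chosen after seeing this, keeping the probes of the 6-array filter gave 53 genes, and requiring all arrays well above background gave 0. None was a subunit. The replicate numbers do not pair samples (same-number correlations of deviations -0.0084, -0.135 and -0.125); a replicate block left 0 genes called and a members' median of 0.05, with Ndufa5 at 0.027. With promoters searched before the gene start, GABPA and YY1 each had 0 of 41 members, against 3.23% and 1.83% of all genes. NRF1 then had 3 of 41 (7.32% against 1.64%) and SP1 14 of 41 (34.1% against 35.4%).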
